A study of Mus musculus with 4 samples.

Results

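The genes described here form a set of 10 taken by name from the 23946 gene symbols measured, all 10 of which were found, by a rule that uses no measured value. They are the transcription factors *Zeb1*, *Zeb2*, *Snai1* and *Snai2*, the cadherins *Cdh1*, *Cdh2* and *Cdh11*, the intermediate filament gene *Vim*, and the epithelial surface and junction genes *Epcam* and *Ocln*. In an epithelial sheet, E-cadherin (*Cdh1*) holds neighbouring cells together, occludin (*Ocln*) sits in their tight junctions and EpCAM marks their surface. During epithelial-mesenchymal transition, zinc-finger repressors of the Snail and Zeb families bind E-box sequences and silence such genes, while N-cadherin (*Cdh2*), cadherin-11 (*Cdh11*) and vimentin (*Vim*) take their place. Twist1 is a basic helix-loop-helix factor of the same process, and neural crest cells leave the neural tube through this transition before some of them build the frontal bone.

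Expression was measured by bulk RNA-seq in the skull vault of mice on a C57BL/6J background at postnatal day 21. The frontal bone, of neural crest origin, and the parietal bone, of mesoderm origin, were each taken from wild-type mice and from *Twist1*+/- mice, which carry 1 functional copy of *Twist1* in every cell. This gives 4 libraries, 1 per genotype and bone. The methods also speak of replicates of each bone, and whether a library here stands for 1 of them or for several together is not stated. The methods speak of 12 mice per strain without stating whether the animals of a library were pooled, and the bones included the pericranium and the dura mater. With 1 library per group there was no replicate error and no test, so each difference below compares libraries, and every ratio is given as a description. Values are FPKM, the sequenced fragments of a gene divided by its transcript length and by the mapped fragments of its library, which allow levels to be compared between genes as well as between libraries. A ratio of more than 3-fold with at least 1 FPKM in the higher library is called past 3-fold.

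The targeted gene was read first. *Twist1* stood at 59.0 FPKM in the wild-type frontal library, 52.5 FPKM in the wild-type parietal one and 30.4 FPKM in *Twist1*+/- frontal bone. The library whose label reads *Twist1*+/- parietal bone had 50.7 FPKM, which is 0.966 times the wild-type parietal level, so the level of *Twist1* goes against that label and the library is named by its label throughout. Bone was present in all 4 libraries, since 11 osteoblast and osteocyte genes summed to between 8711 and 13228 FPKM. In the parietal comparison of genotype the log2 ratio increased with the GC content of the transcript (Spearman's rho = 0.56 across 11520 genes, which are not independent replicates), against rho = 0.12 in the frontal comparison. For parietal over frontal bone, rho was 0.43 in *Twist1*+/- and -0.14 in wild type. The depth of each library is unknown from FPKM. From the spacing of low values, 1 read was worth 1.30 times as much in *Twist1*+/- frontal bone as in wild-type frontal bone, 1.31 times as much in wild-type parietal as in *Twist1*+/- frontal bone, and the same amount in the 2 parietal libraries, which makes the wild-type frontal library the deepest of the 4 by this measure and its low values the most precise.

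All 10 genes were above 0 in all 4 libraries, and the mesenchymal genes led them. *Vim* stood highest in every library, above 99.5% or more of all genes, and *Cdh11* was next, above 96.3% or more of them. The 4 transcription factors and *Cdh2* lay between 7.62 and 36.8 FPKM. *Cdh1* and *Ocln* held the ranks of 9 and 10 in all 4 libraries.

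**Figure D1:**
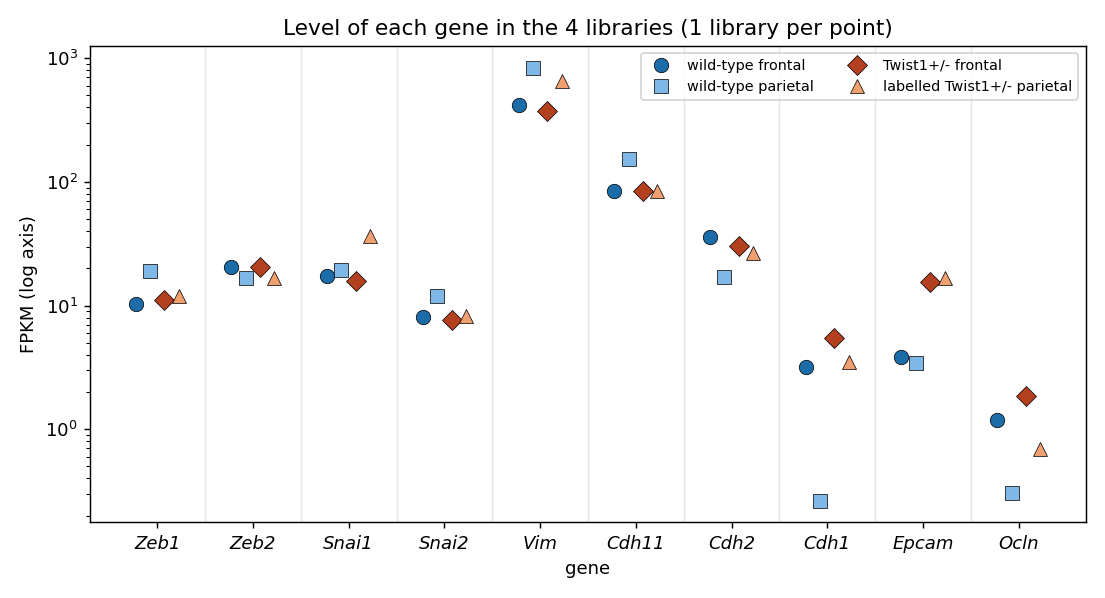
Level of each of the 10 genes in FPKM on a log axis, with 1 point per library and no error bars since each group has 1 library. *Vim* and *Cdh11* stand at the top in all 4 libraries, *Cdh1* in wild-type parietal bone lies at 0.265 FPKM, and *Epcam* splits by labelled genotype with 3.86 and 3.46 FPKM in wild type against 15.5 and 16.6 FPKM in *Twist1*+/-.

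Among the factors that repress epithelial genes, the parietal libraries differed in *Snai1*, *Zeb1* and *Snai2*, and the frontal libraries hardly at all. *Snai1*, which encodes Snail, is on chromosome 2 (mm9, 167363695-167368314, forward strand). It was at 17.4 FPKM in wild-type frontal bone, 19.5 FPKM in wild-type parietal bone, 15.9 FPKM in *Twist1*+/- frontal bone and 36.8 FPKM in the labelled *Twist1*+/- parietal library. That last library alone stood high. *Snai1* was 1.89-fold higher in it than in wild-type parietal bone (log2 ratio 0.92) and 2.31-fold higher than in *Twist1*+/- frontal bone (log2 ratio 1.21), a difference that only 1.69% of the 14305 genes at or above 1 FPKM equalled or exceeded in that direction. Between the frontal libraries its log2 ratio was -0.12. With the trend in GC content subtracted, the log2 ratio of *Snai1* was 0.39 between the parietal libraries and 0.84 between the *Twist1*+/- bones. The share of 1.69% is without that subtraction. The summed osteoblast and osteocyte list was also highest in the labelled library, at 13228 FPKM against 9253 FPKM in wild-type parietal bone. Of its 11 genes 1 was past 3-fold higher and none was listed at 0. The part of the GC trend or of bone cells in the level of *Snai1* was not tested.

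*Snai2*, which encodes Slug, ran the other way. It was at 8.04 FPKM in wild-type frontal bone, 12.0 FPKM in wild-type parietal bone, 7.62 FPKM in *Twist1*+/- frontal bone and 8.19 FPKM in the labelled *Twist1*+/- parietal library, so wild-type parietal bone stood above 3 closely spaced libraries. The log2 ratio was -0.55 between the parietal libraries and -0.08 between the frontal ones. No scaling of a library can alter the ratio of *Snai1* to *Snai2* within it. This ratio was 2.16 and 2.09 in wild-type and *Twist1*+/- frontal bone, 1.63 in wild-type parietal bone and 4.49 in the labelled *Twist1*+/- parietal library. It still carries the GC trend, since the transcript of *Snai1* holds 59.8% G and C and that of *Snai2* 42.6%. With the trend subtracted, the parietal log2 ratios were 0.39 for *Snai1* and 0.02 for *Snai2*.

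*Zeb1* had the same shape as *Snai2*. It was at 10.3 FPKM in wild-type frontal bone, 19.0 FPKM in wild-type parietal bone, 11.1 FPKM in *Twist1*+/- frontal bone and 11.9 FPKM in the labelled *Twist1*+/- parietal library. Wild-type parietal bone was again the high library, 1.85-fold above wild-type frontal bone, and the genotype log2 ratio was -0.67 in parietal and 0.11 in frontal bone. *Zeb2*, its close relative, was nearly level, at 20.4, 16.7, 20.5 and 16.6 FPKM in the same order of libraries. The log2 ratio of *Zeb2* by labelled genotype was -0.01 in parietal and 0.01 in frontal bone, and both parietal libraries lay slightly below both frontal ones (log2 ratios -0.29 and -0.31). *Zeb2* exceeded *Zeb1* 1.97-fold in wild-type frontal bone, whereas in wild-type parietal bone *Zeb1* was the higher of the pair, 1.14 times *Zeb2*. Transcripts of *Zeb2* and *Snai2* are the poorest in G and C of these 4 genes, and with the GC trend subtracted the parietal log2 ratios became 0.57 for *Zeb2*, 0.02 for *Snai2* and -0.23 for *Zeb1*, so the direction flips for *Zeb2* and *Snai2*.

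None of the 4 repressors was past 3-fold in any of the 4 comparisons. The share of all genes past 3-fold, against which the counts below are read, was 8.19% of 13914 genes between the parietal libraries by genotype, 3.89% of 14341 between the frontal libraries, 13.3% of 14214 between the wild-type bones and 4.09% of 14305 between the *Twist1*+/- bones. The comparisons of genotype in the 2 bones use different libraries, but each shares 1 library with each comparison of the bones, so their ratios are not independent.

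The mesenchymal genes *Cdh11* and *Vim* were highest in wild-type parietal bone. *Cdh11*, the osteoblast cadherin, is on chromosome 8 (mm9, 105156895-105309011, reverse strand). It was at 83.9 FPKM in wild-type frontal bone, 154 FPKM in wild-type parietal bone, 84.0 FPKM in *Twist1*+/- frontal bone and 83.8 FPKM in the labelled *Twist1*+/- parietal library. The 3 lower values lie within 1% of each other, and wild-type parietal bone stood 1.84-fold above them, which gave a genotype log2 ratio of -0.88 in parietal bone and 0.00 in frontal bone. Of the genes at or above 1 FPKM, 12.3% were at least as much lower between the parietal libraries. The parietal log2 ratio was -0.41 with the GC trend subtracted and -0.49 with the libraries set to equal *Gapdh*. Between the *Twist1*+/- bones the log2 ratio of *Cdh11* was 0.27 with the GC trend subtracted.

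*Vim* was at 420.1 FPKM in wild-type frontal bone, 840.2 FPKM in wild-type parietal bone, 378 FPKM in *Twist1*+/- frontal bone and 650.0 FPKM in the labelled *Twist1*+/- parietal library. Unlike *Cdh11*, it was higher in both parietal libraries than in both frontal ones, 2.0-fold in wild type and 1.72-fold in *Twist1*+/- (log2 ratios 1.0 and 0.78). Its genotype log2 ratio was -0.37 in parietal and -0.15 in frontal bone. The parietal value turned to 0.02 when the libraries were set to equal *Gapdh* and was -0.59 with the GC trend subtracted. Vimentin is also made by leukocytes and osteoclasts, and 10 macrophage and osteoclast genes, none listed at 0, summed to 3379 FPKM in wild-type frontal bone, 9257 FPKM in wild-type parietal bone, 3891 FPKM in *Twist1*+/- frontal bone and 6673 FPKM in the labelled *Twist1*+/- parietal library. The osteoclast genes *Ctsk*, at 1027, 4782, 1229 and 2600.5 FPKM, and *Acp5*, at 1098, 3345, 1389 and 2990.2 FPKM in that order, made up most of the sum and were the 2 of 10 past 3-fold higher in wild-type parietal than frontal bone. *Lyz2* went the other way, at 898, 477, 945 and 570.2 FPKM, as did the sum of 11 neutrophil and granulocyte genes, none listed at 0, at 15418, 8096, 17252 and 10558 FPKM, with 5 of 11 past 3-fold lower in wild-type parietal bone. The part of these cells in the level of *Vim* was not tested. In bulk tissue, fewer cells of a type and less RNA per cell cannot be told apart.

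N-cadherin differed in the opposite direction from *Cdh11*. *Cdh2* was at 36.1 FPKM in wild-type frontal bone, 17.0 FPKM in wild-type parietal bone, 30.1 FPKM in *Twist1*+/- frontal bone and 26.7 FPKM in the labelled *Twist1*+/- parietal library, so wild-type parietal bone was the low library, 2.12-fold below wild-type frontal bone (log2 ratio -1.09). Its log2 ratio of *Twist1*+/- over wild type, by label, was 0.65 in parietal and -0.26 in frontal bone. Neurons and glia also make N-cadherin, and 10 neural and glial genes, none listed at 0, summed to 359, 75.9, 412 and 372 FPKM in the same order, with 8 of 10 past 3-fold lower in wild-type parietal than frontal bone and 5 of 10 past 3-fold higher in the labelled *Twist1*+/- parietal library than in wild-type parietal bone. Their part in the level of *Cdh2* was not tested. The ratio of *Cdh11* to *Cdh2* within a library was 9.09 in wild-type parietal bone against 2.33, 2.79 and 3.14 in wild-type frontal, *Twist1*+/- frontal and the labelled *Twist1*+/- parietal library.

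**Figure D2:**
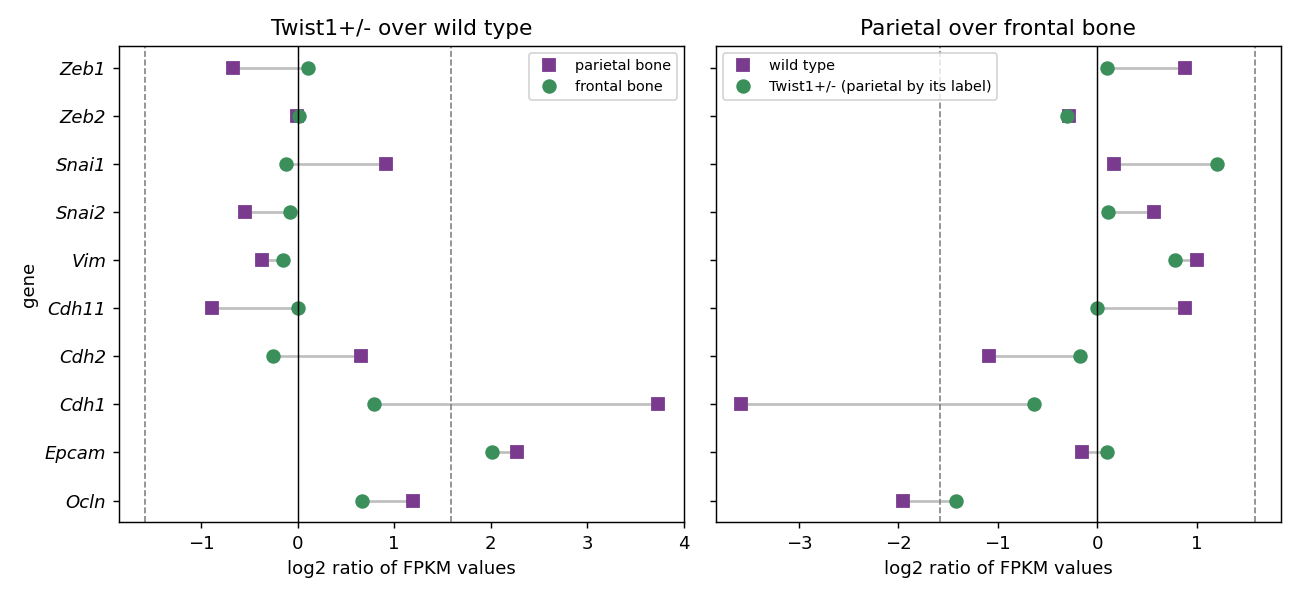
Log2 ratios of FPKM for the 10 genes, *Twist1*+/- over wild type on the left (squares parietal, circles frontal) and parietal over frontal bone on the right (squares wild type, circles *Twist1*+/-), 1 library against 1, with dashed lines at 3-fold. *Cdh1* and *Epcam* in the parietal and *Epcam* in the frontal comparison of genotype lie beyond the line, and *Cdh1* and *Ocln* lie beyond it between the wild-type bones.

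Of the 10 genes, *Cdh1* and *Epcam* were past 3-fold higher in the labelled *Twist1*+/- parietal library than in wild-type parietal bone, 2 of the 9 at or above 1 FPKM, where 5.25% of all genes were past it in that direction and 2.94% in the other. Between the frontal libraries *Epcam* alone was, 1 of 10, where 3.17% of all genes were higher and 0.725% lower. *Cdh1* and *Ocln* were past 3-fold lower in wild-type parietal than frontal bone, 2 of 10, where 9.2% of all genes were lower and 4.07% higher. None of the 10 was past it between the *Twist1*+/- bones, where 0.846% of all genes were higher and 3.24% lower in parietal bone. At 2-fold the counts were 2 of 9 between the parietal libraries by genotype (20.2% of all genes), 1 of 10 between the frontal libraries (7.18%), 4 of 10 between the wild-type bones (26.9%, *Cdh1*, *Cdh2*, *Ocln* and *Vim*) and 2 of 10 between the *Twist1*+/- bones (11.9%, *Snai1* and *Ocln*).

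*Epcam* encodes a homophilic adhesion molecule of epithelia and lies on chromosome 17 (mm9, 88035319-88050446, forward strand). It was at 3.86 FPKM in wild-type frontal bone, 3.46 FPKM in wild-type parietal bone, 15.5 FPKM in *Twist1*+/- frontal bone and 16.6 FPKM in the labelled *Twist1*+/- parietal library. The libraries fell into a low pair and a high pair by labelled genotype, and within each genotype the bones differed by 1.12-fold or less. *Epcam* was 4.81-fold higher in *Twist1*+/- parietal bone by its label (log2 ratio 2.27) and 4.02-fold higher in *Twist1*+/- frontal bone (log2 ratio 2.01), and 2.95% and 2.22% of genes were at least as much higher. These ratios kept their side of 3-fold under each scaling tried, and with the GC trend subtracted they were 2.21 and 2.06 on the log2 scale.

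*Cdh1* lies on chromosome 8 (mm9, 109127251-109194146, forward strand) and gave the widest range of the 10 genes, 20.8-fold from lowest to highest library. It was at 3.17 FPKM in wild-type frontal bone, 0.265 FPKM in wild-type parietal bone, 5.50 FPKM in *Twist1*+/- frontal bone and 3.53 FPKM in the labelled *Twist1*+/- parietal library. Here it was wild-type parietal bone that stood apart from the other libraries, 12.0-fold below wild-type frontal bone (log2 ratio -3.58) and 13.3-fold below the labelled *Twist1*+/- parietal library (log2 ratio 3.73 for *Twist1*+/- over wild type). Of all genes, 1.87% and 1.46% were at least as far apart in these directions. Between the frontal libraries *Cdh1* was 1.73-fold higher in *Twist1*+/- (log2 ratio 0.79), and the difference of the genotype log2 ratios between parietal and frontal bone was 2.94 for *Cdh1* against 0.26 for *Epcam*.

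*Ocln*, a membrane protein of the tight junction, lies on chromosome 13 (mm9, 101266462-101322673, reverse strand) and was lower in level than *Epcam* in every library. It was at 1.18 FPKM in wild-type frontal bone, 0.304 FPKM in wild-type parietal bone, 1.87 FPKM in *Twist1*+/- frontal bone and 0.696 FPKM in the labelled *Twist1*+/- parietal library. Both parietal libraries were below both frontal ones, 3.87-fold in wild type and 2.68-fold in *Twist1*+/-. Both *Twist1*+/- libraries were above the wild-type library of the same bone, by log2 ratios of 1.19 and 0.66 in parietal and frontal bone, though the parietal pair stayed under 1 FPKM. With 1 FPKM added to each value, the wild-type difference between the bones shrank to -0.74 on the log2 scale and was no longer past 3-fold. A gene under 0.333 FPKM in one library is past 3-fold by construction once the other reaches 1 FPKM, which applies to *Cdh1* in the parietal comparison and to *Cdh1* and *Ocln* between the wild-type bones, as it does to 36.3% and 29% of all genes past 3-fold there.

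Snail and Zeb factors recognise the E-box core CACCTG, which reads CAGGTG on the other strand and is one form of the CANNTG sequence that Twist1 and its partners bind. RefSeq promoter windows on GRCm38.p6, from 250 bases before to 50 after each start, were at hand for 5 of the 10 genes (*Zeb2*, *Snai1*, *Vim*, *Epcam* and *Ocln*) and not for *Zeb1*, *Snai2*, *Cdh1*, *Cdh2* and *Cdh11*. The core was found in *Epcam*, at positions -187 and -19 from the start, in *Snai1*, at -126, and in *Ocln*, at 8 from its upstream start, a site that lies at -213 from its second start, which has another at -68. It was absent from these windows of *Vim* and from all 4 of *Zeb2*. Among the 32851 windows of that collection, 20.2% held the core at least once and 2.88% at least 2 times, as *Epcam* and the second start of *Ocln* did, and 72.3% held any CANNTG. Windows with a core are shown for *Epcam*, which split by labelled genotype, and for *Snai1*, the repressor that was highest in the labelled *Twist1*+/- parietal library. One is also shown for *Ocln*, which was higher in the library labelled *Twist1*+/- of each bone but differed more between the bones. The strand of the gene is given 5′ to 3′, to 20 bases past the start, with the core in capitals. The window of the second start of *Ocln*, which shares 50 bases with the first and holds the core at -68, is not shown, and a match is a description of the sequence, not a bound site.
*Epcam*, GRCm38.p6 chr17:87635729-87635998, forward strand: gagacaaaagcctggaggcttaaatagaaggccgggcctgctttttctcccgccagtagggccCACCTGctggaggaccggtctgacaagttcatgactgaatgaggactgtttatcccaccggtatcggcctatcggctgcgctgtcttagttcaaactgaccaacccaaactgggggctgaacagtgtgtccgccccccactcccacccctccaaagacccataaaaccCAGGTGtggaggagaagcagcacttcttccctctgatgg
*Ocln*, GRCm38.p6 chr13:100552699-100552968, reverse strand: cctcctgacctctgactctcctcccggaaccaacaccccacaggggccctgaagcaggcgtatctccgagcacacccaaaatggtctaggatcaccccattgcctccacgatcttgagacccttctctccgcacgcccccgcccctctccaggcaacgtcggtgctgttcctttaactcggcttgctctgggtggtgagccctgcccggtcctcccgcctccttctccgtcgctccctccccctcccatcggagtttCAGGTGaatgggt
*Snai1*, GRCm38.p6 chr2:167537945-167538214, forward strand: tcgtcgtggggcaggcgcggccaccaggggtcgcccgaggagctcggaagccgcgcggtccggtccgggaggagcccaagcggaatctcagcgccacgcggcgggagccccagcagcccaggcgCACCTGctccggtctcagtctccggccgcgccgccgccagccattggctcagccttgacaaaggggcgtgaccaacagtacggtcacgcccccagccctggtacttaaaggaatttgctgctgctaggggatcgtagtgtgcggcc

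Ratios within a library set the epithelial against the mesenchymal genes without regard to scaling, but they still carry the GC trend. In wild-type parietal bone those over *Cdh1* rest on its low value of 0.265 FPKM. *Cdh11* exceeded *Cdh1* 26.4-fold in wild-type frontal bone, 583-fold in wild-type parietal bone, 15.3-fold in *Twist1*+/- frontal bone and 23.7-fold in the labelled *Twist1*+/- parietal library. *Cdh2* exceeded *Cdh1* 11.4-, 64.1-, 5.48- and 7.56-fold in the same order. *Vim* exceeded *Epcam* 109-, 243-, 24.3- and 39.1-fold. Each of these ratios was largest in wild-type parietal bone and smallest in *Twist1*+/- frontal bone, and within each bone it was smaller in the *Twist1*+/- library. The ratio of *Epcam* to *Cdh1* was not constant, at 1.22, 13.0, 2.82 and 4.71, so the epithelial genes did not keep 1 proportion to each other.

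Other genes of the pathway were followed in 8 lists with 121 distinct genes. They were chosen for their known roles, but with earlier results of these data known. In the 20-gene epithelial program, of regulators such as *Esrp1*, which directs epithelial splicing, *Elf3*, an epithelial ETS factor, and *Grhl1*, a grainyhead factor, 12 reached 1 FPKM in a parietal library and 9 were past 3-fold higher in the labelled *Twist1*+/- one, with none lower. Between the frontal libraries 7 of 13 were past it, again with none lower. In each bone most of these genes reached 1 FPKM in the *Twist1*+/- library alone, which leaves few that could be past it lower. With under 0.333 FPKM in wild type, 5 of the 9 in parietal bone and 1 of the 7 in frontal bone were past it by construction. *Spint2*, a protease inhibitor of epithelial surfaces and the most abundant gene of the list, was at 16.5 FPKM in wild-type frontal bone, 6.96 FPKM in wild-type parietal bone, 34.6 FPKM in *Twist1*+/- frontal bone and 47.8 FPKM in the labelled *Twist1*+/- parietal library. *Esrp1* was far lower, at 0.545, 0.0772, 2.71 and 1.48 FPKM. Over all 20 genes the median difference in log2(FPKM + 1), *Twist1*+/- minus wild type, was 0.74 in parietal and 0.70 in frontal bone, where over all genes at or above 1 FPKM it was -0.05 and -0.03.

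Keratins of simple and basal epithelia had the largest medians of the pathway lists, 1.70 in parietal and 1.25 in frontal bone over 7 genes. In parietal bone 5 of 7 were past 3-fold higher in the labelled *Twist1*+/- library, and in frontal bone 5 of 6. With under 0.333 FPKM in wild type, 3 of the 5 in parietal bone and 1 of the 5 in frontal bone were past it by construction. *Krt18*, a keratin of simple epithelia, was at 3.91, 1.48, 18.1 and 13.4 FPKM in wild-type frontal, wild-type parietal, *Twist1*+/- frontal and the labelled *Twist1*+/- parietal library, and its partner *Krt8* was at 1.34, 0.481, 7.78 and 4.46 FPKM. The ratio of *Epcam* to *Krt18* was 0.987, 2.33, 0.856 and 1.24, highest in wild-type parietal bone, where *Krt18* was low and *Epcam* was not. The keratin *Krt7* did not follow, with 4.45 and 4.36 FPKM in the wild-type and labelled *Twist1*+/- parietal libraries, and it was 3.17-fold higher in wild-type parietal than frontal bone.

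Tight junction genes were mixed. Between the parietal libraries 4 of 15 were past 3-fold, all higher in the labelled *Twist1*+/- library (*Cldn3*, *Cldn4*, *Cldn7* and *Tjp3*), and between the frontal libraries 6 of 17 were, all higher in *Twist1*+/-. With under 0.333 FPKM in wild type, all 4 in parietal bone and 2 of the 6 in frontal bone were past it by construction. Of the 15 in parietal bone 11 had a ratio above 1, while *Cldn1* was 2.43-fold lower in the labelled library. *Cldn3*, a claudin of tight epithelia, was at 2.37, 0.312, 10.4 and 7.52 FPKM in wild-type frontal, wild-type parietal, *Twist1*+/- frontal and the labelled *Twist1*+/- parietal library, so that like *Cdh1* it was lowest in wild-type parietal bone. *Cldn11*, the claudin of highest mean, was at 22.2, 34.6, 24.2 and 20.2 FPKM and highest there, and in the labelled *Twist1*+/- parietal library *Cldn10* exceeded it with 26.4 FPKM. The median difference over all 22 genes was 0.44 in parietal and 0.53 in frontal bone.

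Desmosome and catenin genes, which carry the cytoplasmic side of adhesion, gave no call in either comparison of genotype. Of 14 desmosome genes only 3 reached 1 FPKM in a parietal and 4 in a frontal library, so most could not be called, and *Dsg1a* was listed at 0 in all 4. The median difference over all 14 was 0.27 in parietal and 0.30 in frontal bone. Over the 7 catenin genes it was -0.21 and 0.05. Plakoglobin (*Jup*) was at 10.8, 5.41, 13.3 and 12.9 FPKM, lowest in wild-type parietal bone. β-catenin (*Ctnnb1*), which binds the tail of every classical cadherin, was at 328, 457, 341 and 394 FPKM, above the sum of the 3 cadherins among the 10 genes in each library but with no ratio past 3-fold.

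Of 20 other cadherins, *Cdh26*, an epithelial cadherin, was past 3-fold higher in both comparisons of genotype, at 0.793, 0.185, 4.07 and 3.41 FPKM in wild-type frontal, wild-type parietal, *Twist1*+/- frontal and the labelled *Twist1*+/- parietal library. *Cdh22* was past it in parietal bone, and *Cdh6* was past it in frontal bone, lower in *Twist1*+/-. Between the parietal libraries *Cdh22* and *Cdh26* were past it by construction, being under 0.333 FPKM in wild type. Between the wild-type bones 5 of 10 were past 3-fold lower in parietal bone, *Cdh4*, *Cdh6*, *Cdh19*, *Cdh20* and *Cdh22*. All 5 were under 0.333 FPKM in parietal bone and reached 1 FPKM in frontal bone alone, so they were past 3-fold by construction. *Cdh5* of endothelium and *Cdh15*, known from muscle cells, had the highest means, and wild-type parietal bone was their lowest library, with 13.5 and 6.22 FPKM. The sum of 10 skeletal muscle genes, none listed at 0, ran the opposite way to *Cdh15*, at 118 FPKM in wild-type frontal bone, 3631 FPKM in wild-type parietal bone, 1401 FPKM in *Twist1*+/- frontal bone and 1796 FPKM in the labelled *Twist1*+/- parietal library.

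Of 15 other transition factors, 13 were at or above 1 FPKM and none of them was past 3-fold in either comparison of genotype, with median differences of 0.13 in parietal and 0.05 in frontal bone. Between the wild-type bones *Twist2* and *Prrx2* were past it, both higher in parietal bone, and *Prrx2*, a homeobox factor of craniofacial mesenchyme, also between the *Twist1*+/- bones, at 16.2, 62.6, 12.1 and 41.4 FPKM. Of 18 mesenchymal adhesion and matrix genes, 1 was past 3-fold between the parietal libraries. It was *Postn*, a matrix protein of periosteum, at 396 FPKM in wild-type frontal bone, 1044 FPKM in wild-type parietal bone, 199 FPKM in *Twist1*+/- frontal bone and 283 FPKM in the labelled *Twist1*+/- parietal library, 3.69-fold lower in the last than in wild-type parietal bone. The median difference of the list was -0.39 in parietal and 0.03 in frontal bone.

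**Figure D3:**
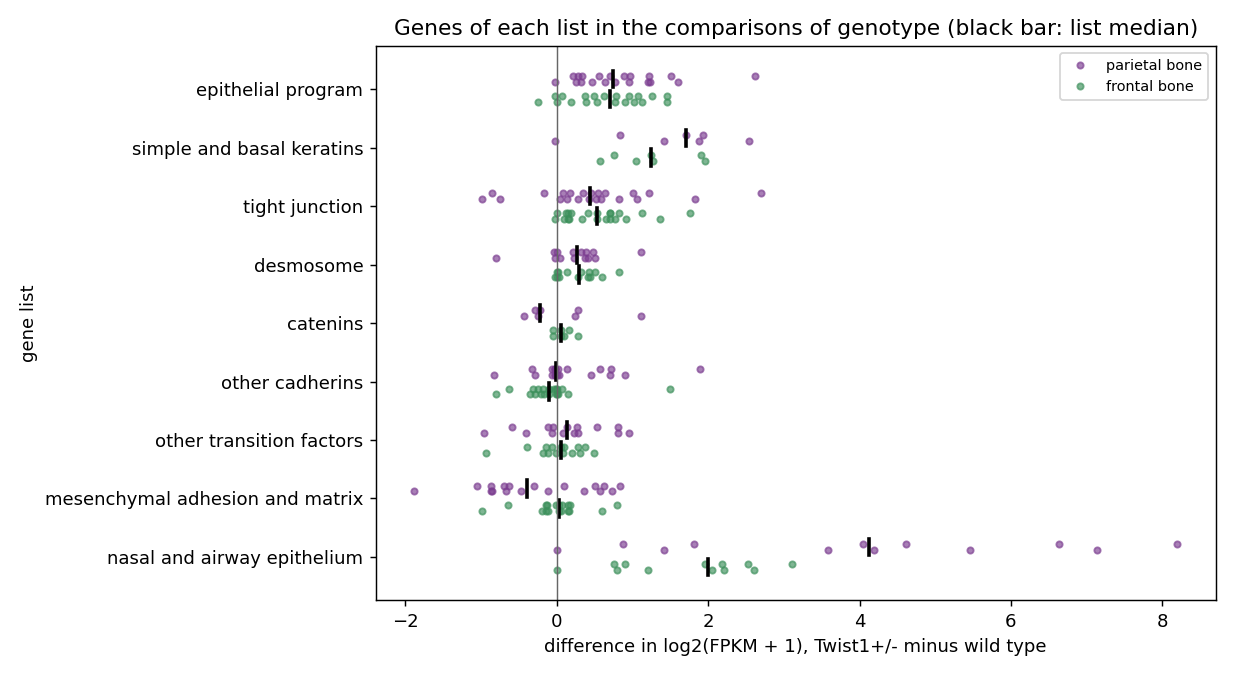
Difference in log2(FPKM + 1), *Twist1*+/- minus wild type, for each gene of 8 pathway lists and the nasal and airway list (points purple for parietal and green for frontal bone, 1 library against 1), with list medians as black bars. Most epithelial program, keratin and nasal genes lie to the right of 0 in both bones (*Cdh3* lies left of it in both, and *Scgb1a1* is listed at 0), with medians of 0.74 and 0.70 for the epithelial program and 4.12 and 2.0 for the nasal and airway list, while catenins, cadherins and transition factors spread around 0.

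Over the 121 genes, 20 were past 3-fold higher and 1 lower of 79 at or above 1 FPKM between the parietal libraries (26.6%, against 8.19% of all genes), and 19 higher and 1 lower of 87 between the frontal libraries (23.0%, against 3.89%). These comparisons share no library, and 12 genes were past 3-fold higher in both, 12 of the 20 and 12 of the 19. Over all genes 197 were, 27% of those higher in parietal and 43.4% of those higher in frontal bone. Of the 21 past 3-fold in parietal bone, 14 were under 0.333 FPKM in the lower library and so were past it by construction, and of the 20 in frontal bone 4 were. Between the wild-type bones 6 were higher and 9 lower of 69 in parietal bone (21.7%, against 13.3%), where 7 of the 9 lower were past 3-fold by construction, and between the *Twist1*+/- bones 1 was higher and 1 lower of 86 (2.33%, against 4.09%). Since the lists were chosen with earlier results of these data known, the shares given here are descriptions and were not tested.

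The summed list of nasal and airway epithelium, like *Epcam* and *Cdh1*, was higher in the library labelled *Twist1*+/- of each bone. Skull vault bone itself holds no such epithelium. The 12 genes of that list summed to 377 FPKM in wild-type frontal bone, 33.4 FPKM in wild-type parietal bone, 1876 FPKM in *Twist1*+/- frontal bone and 2468 FPKM in the labelled *Twist1*+/- parietal library. The sum was 4.98-fold higher in *Twist1*+/- frontal bone, 73.9-fold higher in the labelled *Twist1*+/- parietal library and 11.3-fold lower in wild-type parietal than frontal bone. Between the wild-type bones *Cdh1* was 12.0-fold lower in parietal bone, while *Epcam* differed by 1.12-fold. Between the *Twist1*+/- bones the sum was 1.32-fold higher in parietal bone and *Cdh1* 1.56-fold lower. Between the parietal libraries 10 of 10 at or above 1 FPKM were past 3-fold higher, and between the frontal libraries 9 of 11. Its genes of highest mean over the libraries were *Bpifa1*, a secreted airway protein, at 108, 14.7, 625 and 688 FPKM, and *Obp1a*, an odorant-binding protein, at 57.6, 0.852, 505 and 542 FPKM. In the labelled *Twist1*+/- parietal library *Scgb1c1* was higher still, at 727 FPKM, and *Scgb1a1*, the club cell secretoglobin, was listed at 0 in all 4. The 11 epidermal keratinocyte genes, of which *Flg2* was listed at 0 in all 4 and 2 are also keratins of the list above, summed to 10.5, 12.2, 19.1 and 40.4 FPKM. The part of nasal, airway or skin epithelium in the levels of *Epcam*, *Cdh1*, *Ocln* and the epithelial lists was not tested.

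**Figure D4:**
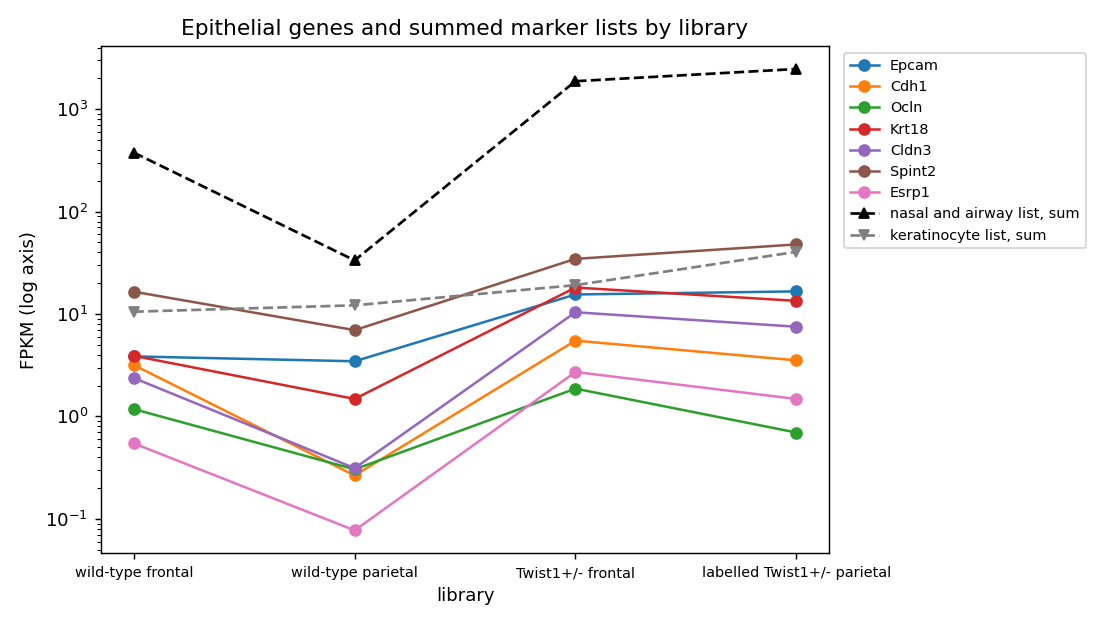
FPKM on a log axis of *Epcam*, *Cdh1*, *Ocln* and 4 genes of the epithelial lists (coloured circles), and the summed nasal and airway and keratinocyte lists (dashed), in each of the 4 libraries, where lines join libraries only to guide the eye. The nasal and airway sum runs from 33.4 to 2468 FPKM and is lowest in wild-type parietal bone, as are *Cdh1*, *Ocln*, *Krt18*, *Cldn3*, *Spint2* and *Esrp1*, while *Epcam* is nearly equal in the wild-type bones.

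The gene whose pattern over the 4 libraries lay nearest to each of the 10 was sought among 14541 genes, by the Euclidean distance of centred log2 FPKM. The mesenchymal and repressor genes had near neighbours, such as *Pdcd10* for *Snai2* (distance 0.0074), *Slc35f5* for *Cdh11* (0.021), *Anapc15* for *Zeb1* (0.022), *Sclt1* for *Zeb2* (0.029), *Kcp* for *Vim* (0.035), *B3gnt7* for *Snai1* (0.043) and *Dek* for *Cdh2* (0.056). The epithelial genes had more distant ones, *Arhgef37* for *Ocln* (0.11), *Drc1*, a dynein regulatory gene of motile cilia, for *Cdh1* (0.23), and *Gpx2*, a glutathione peroxidase of epithelia, for *Epcam* (0.25). *Drc1* was at 0.539, 0.0536, 1.10 and 0.735 FPKM and *Gpx2* at 0.378, 0.316, 1.65 and 1.92 FPKM in the order of libraries used above. With 4 libraries many genes share any given shape. Of the 20 nearest genes 6 kept their place when 1 FPKM was added to each value, and *Drc1* and *Gpx2* were not among them. The distance is not scaled to the range of a gene. *Cdh1*, *Ocln* and *Epcam* had the widest ranges of the 10 genes, so larger distances for them follow in part from the measure.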

How the data were processed

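Poly(A) RNA was made into stranded libraries and read as single-end reads of 75 bases. The authors aligned them to the mouse genome mm9 with STAR (2.4.2a), took the annotation from iGenomes, and deposited FPKM values for each gene and library from Cuffdiff (Cufflinks 2.2.1). The methods give the reads and their mapped share as averages over replicates. The scaling option of Cuffdiff and the depth of each single library are not given in the sources used here. Libraries were grouped by their labels. Ratios of FPKM, medians of log2(FPKM + 1) differences and counts past 3-fold with a floor of 1 FPKM were computed in Python (3.11.15) with numpy (2.4.6) and pandas (2.3.3). No test across replicates was possible with 1 library per group, so no p-value is given. The genes and lists were chosen with earlier results of these data known. Named from each list were at most 4 genes past 3-fold per comparison, by size, and the 2 of highest mean. *Grhl1* and the 5 cadherins lower in wild-type parietal bone were named after their values were seen. GC content, positions and 75-base windows came from GENCODE M1 on mm9, which gave a GC value for 80.8% of genes, and no window of the 10 genes was shared with another gene. Promoters came from RefSeq (GRCm38.p6). Alternatives were 0.1 or 1 FPKM added to each value, a floor of 0 or 10 FPKM, 2-fold and 8-fold thresholds, genes above 0 in both libraries, equal median ratio, equal *Gapdh*, and subtraction of the median ratio in 20 groups of GC content.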

Additional observations from a re-analysis of the deposited data

Results flagged for a closer look

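For 5 of the 10 genes the library labelled *Twist1*+/- lay on opposite sides of wild type in the 2 bones. Of 13495 genes at or above 1 FPKM in both comparisons 45.6% did so, a share near that of these genes (5 of 9). With 1 library per genotype and bone the difference between the bones was not tested for any of them. *Snai1* had a log2 ratio of 0.92 in parietal and -0.12 in frontal bone, and *Cdh2* of 0.65 and -0.26. *Zeb1* had -0.67 in parietal and 0.11 in frontal bone, and *Cdh11* -0.88 and 0.00198. *Zeb2* had -0.00892 and 0.0107. The frontal value of *Cdh11* and both values of *Zeb2* are next to zero and turned direction with the libraries set to equal *Gapdh*. The parietal side of each rests on the labelled *Twist1*+/- parietal library, whose *Twist1* level of 50.7 FPKM was near that of wild-type parietal bone at 52.5 FPKM. It rests as much on the wild-type parietal library, which was the highest for *Zeb1* and *Cdh11* and the lowest for *Cdh2*. With the GC trend subtracted, the parietal log2 ratios were 0.39 for *Snai1*, 0.83 for *Cdh2*, -0.23 for *Zeb1*, -0.41 for *Cdh11* and 0.57 for *Zeb2*.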

How the results depend on the processing

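Of 200 log2 ratios of the 10 genes under other choices, 187 kept their direction with no call gained or lost, and 12 turned direction. The remaining 1 lost its call, *Ocln* between the wild-type bones with 1 FPKM added (-0.74). Between the parietal libraries by genotype, *Ocln* was under 1 FPKM in both and so could not be called. Its log2 ratio there exceeded 3-fold with the GC trend subtracted (1.77) and barely with equal *Gapdh* (1.585). Setting the libraries to equal *Gapdh* takes the log2 ratio of *Gapdh* from every gene, -0.39 between the parietal libraries by genotype, 0.10 between the frontal libraries and 0.44 between the wild-type bones. It turned *Zeb2* (0.38) and *Vim* (0.0206) in the parietal comparison of genotype, *Zeb2* (-0.0923) and *Cdh11* (-0.10) in the frontal one, *Snai1* between the wild-type bones (-0.28) and *Cdh11* between the *Twist1*+/- bones (0.0448). Equal median ratio turned *Zeb2* in parietal bone (0.0736). Subtracting the GC trend turned *Zeb2* (0.57) and *Snai2* (0.0150) in parietal bone, *Snai2* in frontal bone (0.00841), and *Zeb2* (0.12) and *Cdh11* (0.27) between the *Twist1*+/- bones. The count of the 10 genes past 3-fold between the parietal libraries went from 2 to 1 with a floor of 10 FPKM or at 8-fold, and between the frontal libraries from 1 to 0 at 8-fold. Between the wild-type bones it went from 2 to 1 with 1 FPKM added, 0 with a floor of 10 FPKM, 4 at 2-fold and 1 at 8-fold, and between the *Twist1*+/- bones from 0 to 2 at 2-fold. Over the 121 pathway genes, adding 1 FPKM and a floor of 10 FPKM gave 10 and 3 in place of 21 between the parietal libraries, 3 and 2 in place of 20 between the frontal libraries, 3 and 3 in place of 15 between the wild-type bones, and 1 and 1 in place of 2 between the *Twist1*+/- bones, the fewer genes that reach the floor being part of the second.

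Leaving out a replicate was not possible with 1 library per group. No paired analysis was possible because the groups have 1 library each and so share fewer than 2 replicate numbers. A fit of genotype and bone as additive terms, which would take the difference between the bones as its error, was not run. The depth of each library is unknown, so no interval or detection limit is given for *Cdh1* and *Ocln*, the genes lowest in level. Of 93 genes at or above 1000 FPKM in a library, 5 were listed at 0 in another, and no gene of the 10 was.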

Other observations

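The microRNAs of the miR-200 family are known to repress Zeb transcripts in epithelia. All 5 genes of the family in the files were listed at 0 in all 4 libraries, which were made from poly(A) RNA.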
